A study of Mus musculus with 39 samples.

Results

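Expression of 9 genes that mark successive stages of the oligodendrocyte lineage was followed in bulk RNA of 2 brain regions, basolateral amygdala (BLA) and hippocampus (HP), from female mice aged 9 months. The genes were chosen by symbol, with earlier results of these data known. All 9 of the 9 symbols were found among the 50559 genes of each count table. Pdgfra and Cspg4 were taken as genes of the precursor, Gpr17 as a gene of the committed precursor, Bcas1, Enpp6 and Myrf as genes of the newly formed oligodendrocyte, and Olig1, Olig2 and Sox10 as transcription factors of the whole lineage. APP/Tau mice combined a human APP transgene with the Swedish and Indiana mutations (J9 line), expressed in neurons from a PDGF-B chain promoter, with a human P301S tau transgene (PS19 line), expressed from the prion promoter, and control mice had neither. Every mouse of both genotypes also carried CaMKIIα-Cre, active in forebrain excitatory neurons, and the RiboTag allele, and the RNA came from the input lysate before ribosomes were pulled down, so glial RNA was retained. Trained mice had heard a tone paired with a foot shock, with tissue taken 1 h afterwards, and naive mice were not trained. There were 4 APP/Tau trained, 5 APP/Tau naive, 5 control trained and 5 control naive BLA libraries, and 4, 5, 6 and 5 HP libraries of these groups, 39 in all.

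Oligodendrocyte precursors persist throughout the adult brain, divide, and either remain precursors or leave the cell cycle and differentiate. Precursors are kept in their state by platelet-derived growth factor, which signals through the receptor encoded by Pdgfra, and they carry on their surface the NG2 proteoglycan encoded by Cspg4. As differentiation starts, both genes are switched off and Gpr17, a G-protein-coupled receptor, is expressed for a short time. Bcas1 and the choline phosphodiesterase gene Enpp6 then mark young oligodendrocytes that begin to make myelin, and Myrf encodes the factor that turns on myelin genes. Bcas1 and Myrf remain expressed in mature oligodendrocytes, and Sox10, Olig1 and Olig2 are expressed from precursor to mature cell. Outside the lineage, Pdgfra is also expressed in fibroblasts and Cspg4 in pericytes and smooth muscle cells.

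Levels are given as CPM, each library's counts scaled to a common total, after TMM normalization over all 39 libraries. Library totals ran from 50.3 to 74.3 M counts in the BLA and from 92.1 to 128 M counts in the HP. All 9 genes passed the filter on low counts in each fit. Prnp, the gene whose promoter drives the PS19 transgene, served as a check of the genotype labels: it had 1072 to 1699.5 CPM (median 1393) in APP/Tau and 752 to 1062 CPM (median 949.9) in control BLA libraries, and 1591 to 2212 CPM (median 1892) in APP/Tau and 698 to 958 CPM (median 871) in control HP libraries, with no overlap in either tissue. In the HP, 2 libraries (control trained replicate 1 and control naive replicate 1) had over 1% of counts on 18S ribosomal RNA. In the BLA, 3 libraries (APP/Tau trained replicate 4, APP/Tau naive replicate 2 and control trained replicate 2) had over 100 CPM of the striatal gene Drd2. Of 8 hippocampal neuron markers 7 were lower, and of 4 basolateral amygdala markers 4 were higher, in BLA than in HP libraries of control mice (edgeR's quasi-likelihood test, Benjamini-Hochberg adjusted p under 0.05).

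Per kilobase of annotated exon, Olig1 and Bcas1 had the highest levels of the 9 genes in control HP, at 51.3 ± 5.48 and 41.6 ± 8.002 CPM per kb (SD, n = 11 mice), and their ranges overlapped. Sox10 at 14.9 ± 2.13 and Olig2 at 12.8 ± 2.05 CPM per kb followed and also overlapped. Gpr17 and Myrf stood at 8.13 ± 1.02 and 7.84 ± 1.22 CPM per kb and Pdgfra at 5.29 ± 0.236 CPM per kb. Enpp6 and Cspg4 were lowest, at 1.58 ± 0.285 and 1.58 ± 0.113 CPM per kb, and did not differ beyond their spread. In control BLA the order differed in that Gpr17, at 10.9 ± 1.41 CPM per kb (SD, n = 10), lay beside Sox10 and Olig2 at 9.96 ± 1.14 and 9.64 ± 1.03 CPM per kb, and Pdgfra, at 6.59 ± 0.763 CPM per kb, lay above Myrf at 4.18 ± 0.956 CPM per kb. Cspg4, at 1.93 ± 0.217 CPM per kb, was above Enpp6 at 0.682 ± 0.199 CPM per kb there, with no overlap. Bcas1 in control BLA was at 19.3 ± 3.87 CPM per kb, below Olig1 at 42.7 ± 4.49 CPM per kb with no overlap.

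**Figure D1:**
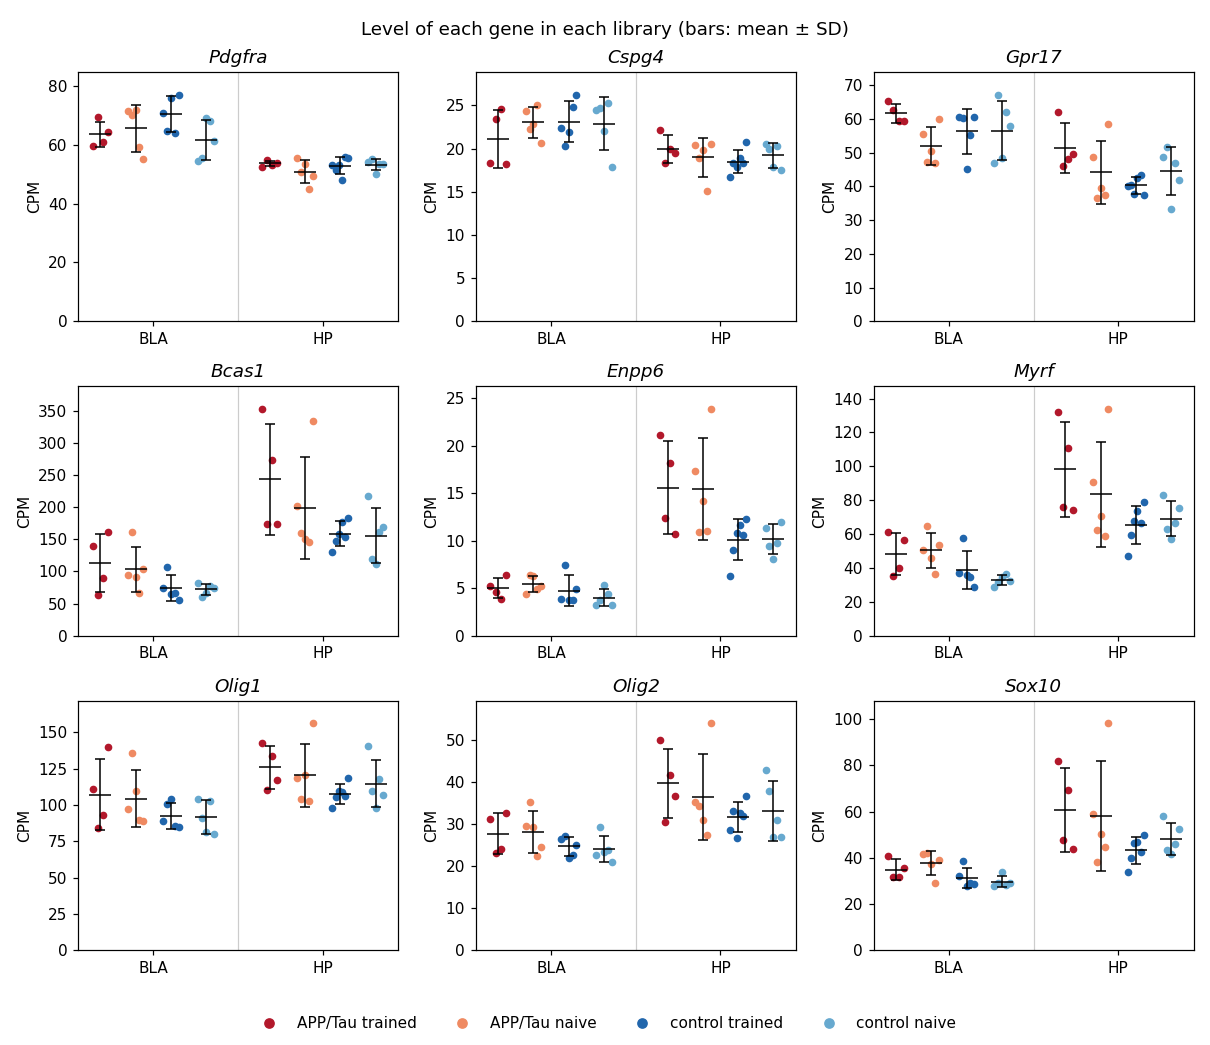
CPM of each of the 9 genes in every library (points), by tissue and group, with the group mean and SD (horizontal and vertical bars, 4 to 6 mice per group). Pdgfra, Cspg4 and Gpr17 lay somewhat higher in the BLA than in the HP, the other 6 genes lay lower in the BLA, and Bcas1, Enpp6, Myrf and Sox10 spread most widely in APP/Tau HP.

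Among the 9 genes, those of the precursor stages and the rest differed in opposite directions between the 2 tissues. All 3 genes of the precursor and committed precursor were higher in the BLA than in the HP, while all 3 genes of the newly formed oligodendrocyte and all 3 lineage factors were lower in the BLA, in both genotypes. In APP/Tau mice all 9 genes passed the test, against a background of 51% of the 26725 genes tested, and in control mice all 9 passed against 55.4% of these genes. Each region difference covers naive and trained mice with equal weight. Beside so high a background, the passing of the test says little by itself. The sizes and directions of the 2 sets are given as a description, since the genes were chosen with earlier results of these data known.

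In APP/Tau mice Pdgfra had 55.1 to 71.9 CPM (median 64.2) in BLA and 45.1 to 55.4 CPM (median 53.2) in HP, a log2 difference of 0.30 ± 0.06 (SE, edgeR adjusted p = 1.94e-05). In control mice it had 54.5 to 77.0 CPM (median 66.4) in BLA and 48.1 to 55.8 CPM (median 53.4) in HP, with overlap at the low end of the BLA range. Its level in control BLA was 1.24-fold that of the HP (log2 difference 0.31 ± 0.05 (SE), adjusted p = 2.75e-06). Cspg4 followed it with log2 differences of 0.18 ± 0.07 in APP/Tau mice (adjusted p = 0.035) and 0.29 ± 0.07 in control mice (adjusted p = 3.64e-04). In APP/Tau mice the Gpr17 difference was 0.25 ± 0.09 (adjusted p = 0.019). Gpr17 had 45.2 to 67.2 CPM (median 59.1) in BLA and 33.4 to 51.6 CPM (median 42.0) in HP of control mice, so that the ranges overlapped, and its log2 difference was 0.41 ± 0.08 (adjusted p = 5.22e-05).

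Enpp6 showed the largest region difference of the 9 genes. In APP/Tau mice it had 3.88 to 6.40 CPM (median 5.21) in BLA and 10.7 to 23.9 CPM (median 14.2) in HP, without overlap, and the level in BLA was 0.337-fold that in HP (log2 difference -1.57 ± 0.17 (SE), adjusted p = 5.94e-10). In control mice Enpp6 had 3.19 to 7.45 CPM (median 3.83) in BLA and 6.32 to 12.3 CPM (median 10.6) in HP, where only the highest BLA library, control trained replicate 2, exceeded the lowest HP library. Enpp6 in control BLA was 0.430-fold its level in HP (log2 difference -1.22 ± 0.15, adjusted p = 2.11e-08). Bcas1 was lower in the BLA too, with log2 differences of -1.02 ± 0.18 in APP/Tau and -1.11 ± 0.17 in control mice (adjusted p = 1.69e-05 and 1.16e-06). In control mice the ranges of Bcas1 did not overlap, at 55.5 to 107 CPM (median 70.4) in BLA and 112 to 217 CPM (median 159) in HP. Myrf was also lower in the BLA, with log2 differences of -0.88 ± 0.15 in APP/Tau mice and -0.92 ± 0.14 in control mice (adjusted p = 7.48e-06 and 8.72e-07).

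The lineage factors lay between these sets. All 3 were lower in the BLA. Sox10 had log2 differences of -0.71 ± 0.13 in APP/Tau and -0.59 ± 0.12 in control mice (SE). Olig2 had -0.45 ± 0.11 in APP/Tau and -0.41 ± 0.11 in control mice, and Olig1 had -0.22 ± 0.09 in APP/Tau and -0.27 ± 0.09 in control mice. The Olig1 difference in APP/Tau mice (adjusted p = 0.047) and the Cspg4 difference there were close to the threshold. Cspg4 passed in 31 of 39 fits that left out 1 library, and not without BLA APP/Tau trained 2 or 3, BLA APP/Tau naive 1 or 4, HP APP/Tau trained 2, 3 or 4, or HP APP/Tau naive 4 (adjusted p from 0.051 to 0.115). Olig1 passed in 25 of 39, and not without BLA APP/Tau trained 1, 2 or 3, BLA APP/Tau naive 1, 4 or 5, HP APP/Tau trained 1 or 3, HP APP/Tau naive 1, 3 or 5, HP control trained 1, or HP control naive 4 or 5 (adjusted p up to 0.138). Olig1 also missed the threshold there with DESeq2, with RLE factors and with no filter (adjusted p = 0.051, 0.054 and 0.065), which left 8 of the 9 genes. All 9 differences of control mice passed in each of the 39 fits.

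Other genes of these stages were counted in the same fits. In APP/Tau mice, of 20 further precursor genes 7 were higher and 4 lower in the BLA (median log2 difference -0.01). Of 24 further newly formed oligodendrocyte genes 4 were higher and 17 lower (median -0.44), and all 20 mature myelin genes were lower (median -0.95). Over all 26725 genes tested in APP/Tau mice, 6261 were higher and 7373 lower, or 51% in either direction. Beside that background the count of further precursor genes does not set them apart. Of the further precursor genes, in control mice 11 were higher and 4 lower in the BLA, with a median log2 difference of 0.33. Over all 26725 genes tested in control mice, 7163 were higher and 7635 lower, with a median of -0.03. Cacng4, a subunit of calcium channels and AMPA receptors, had a log2 difference of 1.67 ± 0.09, adjusted p = 8.55e-18, and Vcan, the proteoglycan versican, was lower with -0.64 ± 0.08, adjusted p = 5.71e-09. Of the further newly formed genes, 5 were higher and 15 lower (median -0.36), among the lower ones Rras2, a small GTPase, at -1.84 ± 0.11, adjusted p = 5.30e-17. All 20 mature myelin genes were lower in the BLA of control mice (median -1.04), led in p by Hapln2, a link protein of nodes of Ranvier (-1.27 ± 0.14, adjusted p = 1.60e-09). The lists were compared by these counts alone.

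Several things other than the region differ between the 2 sets of libraries. BLA tissue was punched from sections and its libraries were made from 10 ng of RNA, whereas the HP was dissected whole and its libraries were made from 50 ng, and the effect of these steps cannot be told apart from that of the region. In bulk RNA, fewer cells of a type and less RNA per cell also cannot be told apart. The summed level of 8 fibroblast markers in control mice was 31.2 to 74.2 CPM in BLA and 96.7 to 228 CPM in HP. Of these markers 8 of 8 were lower in the BLA, where Pdgfra was higher. The summed level of 8 mural cell markers was 117 to 162 CPM in BLA and 171 to 209 CPM in HP. Of these markers 6 of 8 were lower in the BLA, where Cspg4 was higher. The part of fibroblasts and mural cells in the levels of Pdgfra and Cspg4 was not tested. No marker of either list was at 0 in either tissue.

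**Figure D2:**
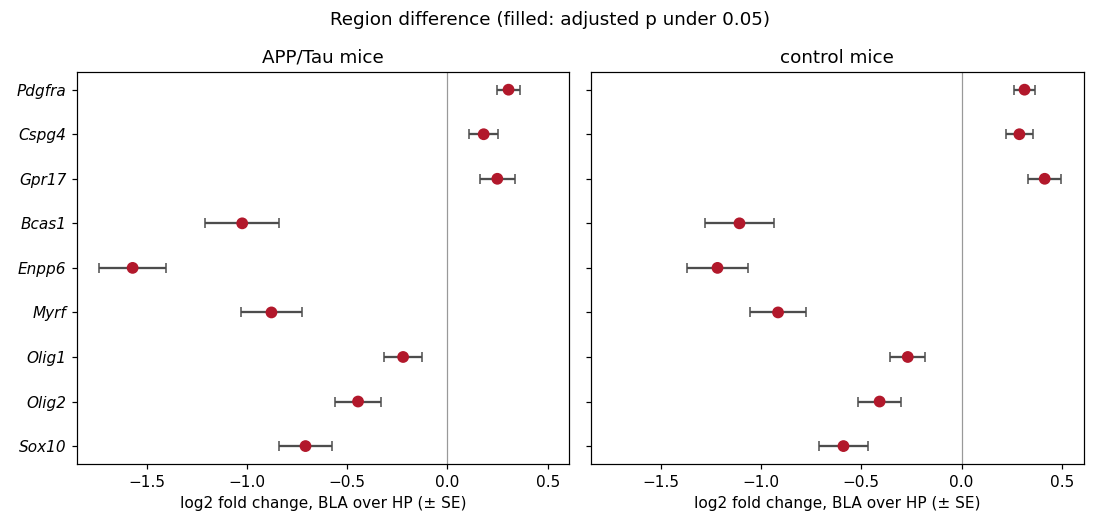
Log2 fold change of each gene, BLA over HP, with its standard error, in APP/Tau mice (left, 9 BLA and 9 HP libraries) and control mice (right, 10 and 11 libraries); filled points passed an adjusted p of 0.05. Pdgfra, Cspg4 and Gpr17 lie right of 0 and the other 6 genes left of it in both panels.

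The balance between the stages was summarised in each library as the mean log2 CPM of Bcas1, Enpp6 and Myrf minus that of Pdgfra and Cspg4. As a score over chosen genes it was described without a test. In the HP this balance was 1.54, 0.79, 1.33 and 0.67 in APP/Tau trained mice, 1.02, 0.62, 0.71, 0.81 and 1.68 in APP/Tau naive mice, 0.18 at the lowest, 0.62 at the median and 0.83 at the highest in control trained mice, and 0.83, 0.32, 0.32, 0.52 and 0.81 in control naive mice. All 20 HP libraries were above 0. The 4 highest HP values were all from APP/Tau mice, and the other 5 APP/Tau values overlapped the control values. In the BLA the balance was 0.10, -0.89, -0.68 and 0.18 in APP/Tau trained mice, -0.60, 0.04, -0.45, -0.75 and -0.13 in APP/Tau naive mice, -0.85, -0.01, -0.99, -0.95 and -1.18 in control trained mice, and -0.89, -0.93, -0.75, -0.84 and -0.73 in control naive mice. Control trained replicate 2, one of the 3 libraries with high Drd2, stood apart from the other 9 control libraries at -0.01, and the other 2 such libraries, APP/Tau trained replicate 4 and APP/Tau naive replicate 2, were at 0.18 and 0.04.

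**Figure D3:**
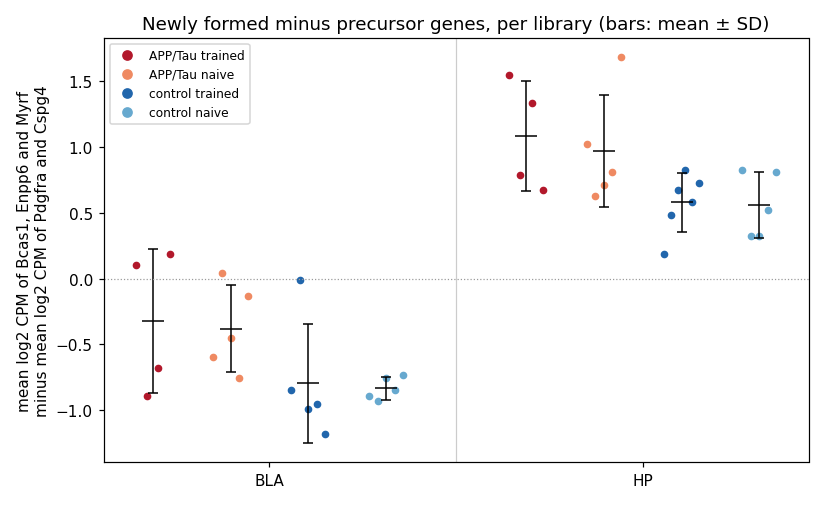
Mean log2 CPM of Bcas1, Enpp6 and Myrf minus mean log2 CPM of Pdgfra and Cspg4 in every library (points), with group mean and SD (bars). The BLA libraries lie from -1.18 to 0.18 and the HP libraries from 0.18 to 1.68, and in both tissues the highest value is from an APP/Tau mouse.

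The promoters of 3 of these genes are shown because the genes moved in opposite directions between regions: Pdgfra and Cspg4 were higher and Enpp6 lower in the BLA. Each is given from 5′ to 3′ on the strand of the gene, from the RefSeq table of build GRCm38.p6, which differs from build mm39 named for the counts. Of the 9 symbols 4 were matched to this table, and no promoter is shown for Bcas1, Gpr17, Myrf, Olig1, Olig2 and Sox10. Capitals mark CANNTG, the core bound by basic helix-loop-helix factors such as the Olig proteins, and ACAANG, a core of Sox sites, searched on both strands. No capital letters of the 2 motifs overlap.
Pdgfra: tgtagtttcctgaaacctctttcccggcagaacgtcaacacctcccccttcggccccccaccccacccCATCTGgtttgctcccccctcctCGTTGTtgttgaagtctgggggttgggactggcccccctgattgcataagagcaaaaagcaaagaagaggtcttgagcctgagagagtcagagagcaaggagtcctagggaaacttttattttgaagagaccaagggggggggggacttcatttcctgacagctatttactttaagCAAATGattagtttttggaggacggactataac
Cspg4: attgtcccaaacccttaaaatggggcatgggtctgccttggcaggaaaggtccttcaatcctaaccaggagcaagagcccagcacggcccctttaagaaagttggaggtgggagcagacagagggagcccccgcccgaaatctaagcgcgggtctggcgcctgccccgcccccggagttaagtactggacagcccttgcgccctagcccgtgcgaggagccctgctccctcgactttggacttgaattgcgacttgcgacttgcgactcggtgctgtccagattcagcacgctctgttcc
Enpp6: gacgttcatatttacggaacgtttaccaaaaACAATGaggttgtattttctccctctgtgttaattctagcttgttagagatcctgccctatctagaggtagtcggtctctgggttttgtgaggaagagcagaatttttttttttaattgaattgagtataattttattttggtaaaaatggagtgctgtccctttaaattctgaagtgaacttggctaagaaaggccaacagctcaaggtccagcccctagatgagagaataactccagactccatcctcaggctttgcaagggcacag
The Pdgfra window (chr5:75152001-75152300, + strand) holds 2 matches to CANNTG and 1 to ACAANG, the Cspg4 window (chr9:56864854-56865153, + strand) holds 0 of either, and the Enpp6 window (chr8:46986637-46986936, + strand) holds 0 of CANNTG and 1 of ACAANG. Among 32851 promoters of the same length, 72.3% hold CANNTG and 41.2% hold ACAANG, and the matches describe the letters of the windows only.

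In the HP of APP/Tau mice, Enpp6 of the newly formed oligodendrocyte rose 1.53-fold relative to control mice. It was the only 1 of the 9 genes to pass the test. The background was 11.1% of 25791 genes tested, and 7.27% of all genes tested passed as higher. A count of 1 in 9 is no more than the background share, so the count does not set the 9 genes apart. Bcas1 and Myrf had estimates of 1.40-fold and 1.34-fold with adjusted p = 0.059 and 0.057. Pdgfra and Cspg4 had estimates of 0.984-fold and 1.03-fold. Over the 9 genes the median log2 fold change was 0.23, with 8 of 9 above 0, beside a median of -0.0013 over all genes.

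Enpp6 had 21.1, 12.4, 18.2 and 10.7 CPM in APP/Tau trained HP and 17.3, 10.9, 14.2, 11.04 and 23.9 CPM in APP/Tau naive HP. In control mice Enpp6 had 6.32 at the lowest, 10.7 at the median and 12.3 at the highest CPM after training and 11.4, 9.49, 8.05, 9.78 and 12.0 CPM without it. Of the 9 APP/Tau mice 6 were above the highest control library, and the other 3 lay within the control range. The averaged log2 fold change of Enpp6 was 0.61 ± 0.15 (SE, edgeR adjusted p = 0.017), and it was 0.62 ± 0.22 in trained and 0.61 ± 0.22 in naive mice (adjusted p = 0.13 and 0.2). The averaged call was kept in 18 of 20 fits that left out 1 library, and without APP/Tau trained replicate 1 or replicate 3 the adjusted p was 0.058 and 0.051.

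Bcas1 had 353, 174, 273 and 174 CPM in APP/Tau trained HP and 202, 159.5, 151, 146 and 334 CPM in APP/Tau naive HP, against 131 at the lowest, 157 at the median and 183 at the highest CPM in control trained HP and 217, 119, 112, 162 and 168 CPM in control naive HP. Only 3 APP/Tau libraries were above the control range. The averaged log2 fold change of Bcas1 was 0.48 ± 0.16 (SE). Myrf had 132, 75.9, 111 and 74.2 CPM in APP/Tau trained HP and 91.0, 62.5, 70.6, 59.1 and 134 CPM in APP/Tau naive HP, against 47.1 at the lowest, 67.2 at the median and 79.2 at the highest CPM in control trained HP and 82.9, 62.9, 57.1, 66.4 and 75.6 CPM in control naive HP. For Myrf 4 APP/Tau libraries were above the control range, and its averaged log2 fold change was 0.42 ± 0.14 (SE). Both genes passed the threshold when genes under a mean of 1 CPM were left out (adjusted p = 0.047 for Bcas1 and 0.046 for Myrf), and Myrf also with DESeq2 (adjusted p = 0.023). They also passed when single libraries were left out, Bcas1 without control naive 1, APP/Tau trained 2 or 4, or APP/Tau naive 2, 3 or 4 (adjusted p from 0.028 to 0.049), and Myrf without APP/Tau trained 2 or 4, APP/Tau naive 2 or 4, or control trained 6 (adjusted p from 0.030 to 0.050).

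The precursor genes had narrow ranges. Pdgfra had 52.6, 54.8, 53.2 and 53.9 CPM in APP/Tau trained HP and 55.4, 50.6, 53.5, 45.1 and 49.5 CPM in APP/Tau naive HP, against 48.1 at the lowest, 53.0 at the median and 55.8 at the highest CPM in control trained HP and 54.0, 55.0, 49.9, 53.5 and 53.4 CPM in control naive HP. The 95% interval of its averaged log2 fold change (-0.02 ± 0.04, adjusted p = 0.73) ran from -0.10 to 0.05. Cspg4 had 15.1 to 22.2 CPM (median 19.8) in APP/Tau and 16.8 to 20.8 CPM (median 18.4) in control HP, a log2 fold change of 0.04 ± 0.06 with an interval from -0.07 to 0.16 (adjusted p = 0.65). Gpr17, the gene of the step between the 2 sets, had 62.2, 45.9, 48.0 and 49.5 CPM in APP/Tau trained HP and 48.9, 36.6, 39.5, 37.4 and 58.5 CPM in APP/Tau naive HP, against 37.3 at the lowest, 40.4 at the median and 43.5 at the highest CPM in control trained HP and 48.8, 51.6, 33.4, 46.9 and 42.0 CPM in control naive HP. All 4 APP/Tau trained values of Gpr17 were above the highest control trained value, and the naive groups overlapped. The share of all genes with such a separation was not counted. Its log2 fold change was 0.35 ± 0.13 in trained mice (adjusted p = 0.14) and -0.01 ± 0.12 in naive mice (adjusted p = 0.98), and the difference between these was 0.36 ± 0.18 (interaction, adjusted p = 0.98). In trained mice 2.8% of all genes passed the test and none of the 9 did, although Myrf passed without APP/Tau naive 5 (adjusted p = 0.038). In naive mice 0.202% of all genes and none of the 9 passed.

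Of the lineage factors, Sox10 had 38.2 to 98.1 CPM (median 50.2) in APP/Tau and 33.8 to 57.9 CPM (median 46.1) in control HP, with a log2 fold change of 0.37 ± 0.15 (SE, adjusted p = 0.096). Olig2 had 27.5 to 54.0 CPM (median 35.3) in APP/Tau and 26.7 to 43.0 CPM (median 32.0) in control HP, with 0.23 ± 0.12 (adjusted p = 0.2). Olig1 had 103 to 156 CPM (median 119) in APP/Tau and 97.8 to 140.4 CPM (median 109) in control HP, with 0.15 ± 0.07 (adjusted p = 0.21). Sox10 passed without APP/Tau naive 2 or APP/Tau trained 4 (adjusted p = 0.046 and 0.049). The ranges of all 3 factors overlapped between genotypes.

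**Figure D4:**
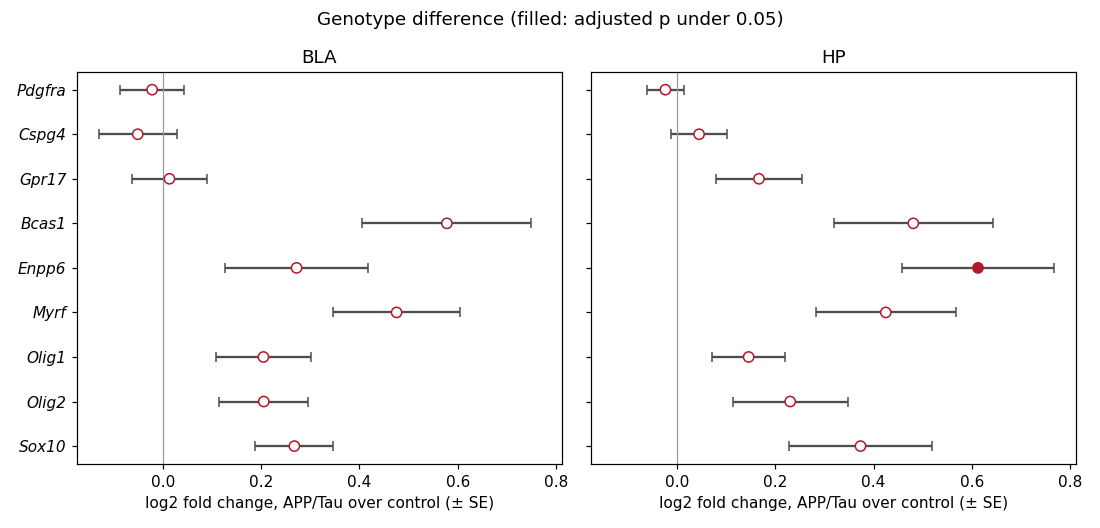
Averaged log2 fold change of each gene, APP/Tau over control, with its standard error, in the BLA (left, 9 APP/Tau and 10 control libraries) and the HP (right, 9 and 11 libraries); the filled point passed an adjusted p of 0.05. Pdgfra and Cspg4 lie near 0 in both tissues, Bcas1, Enpp6 and Myrf lie at 0.27 to 0.61, and only Enpp6 in the HP is filled.

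Other genes of the lineage were counted in the same HP comparison, as were genes of signals that act on precursors and cell division genes. Which cells the changes of the signal and cell division genes came from was not tested. Of 20 further precursor genes, 1 rose and 2 fell (median log2 fold change 0.13): Lhfpl3 at 0.20 ± 0.06, adjusted p = 0.042, against Tnr, an extracellular matrix protein, at -0.21 ± 0.07, adjusted p = 0.044 and Epn2, an endocytic adaptor, at -0.20 ± 0.05, adjusted p = 0.016. Of 24 further newly formed oligodendrocyte genes, 7 rose and 1 fell (median 0.19), among them Cnksr3 (0.66 ± 0.14, adjusted p = 0.0068), the choline transporter gene Slc44a1 (0.39 ± 0.11, adjusted p = 0.024) and the homeobox gene Nkx6-2 (0.55 ± 0.15, adjusted p = 0.028). Of 20 mature myelin genes, 10 rose and none fell, and all 20 estimates were above 0 (median 0.43). The protease gene Klk6 stood at 1.18 ± 0.28, adjusted p = 0.013, the lipid carrier gene Apod at 0.84 ± 0.21, adjusted p = 0.015 and the transferrin gene Trf at 0.71 ± 0.18, adjusted p = 0.016. Of 28 genes of signals that act on precursors, 4 rose and 2 fell (median 0.11). Hes5, a Notch target, fell (-0.63 ± 0.15, adjusted p = 0.014), and so did the Notch ligand gene Dll1 (-0.35 ± 0.09, adjusted p = 0.022), while Bmp4, a ligand also made by newly committed oligodendrocytes, rose (0.64 ± 0.19, adjusted p = 0.034). Of 10 cell division genes, 1 rose, Cdk1 at 1.503 ± 0.40, adjusted p = 0.023, and all 10 estimates were above 0 (median 0.30). The number of further newly formed genes that rose, 7 of 24, is read beside the 7.27% of all genes that rose, without a test.

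Markers of other cells moved with genotype too. In the HP, 7 of 8 microglia markers and 6 of 8 astrocyte markers rose and none fell, with summed levels of 377 to 1269 CPM in APP/Tau and 311 to 374 CPM in control mice for microglia, and 4323 to 10203 and 4026 to 4539 CPM for astrocytes. The 8 neuron markers summed to 6713 to 11447 CPM in APP/Tau and 10002 to 11463 CPM in control HP, and 1 of 8 fell (Map2, -0.23 ± 0.07, adjusted p = 0.038). Mature myelin genes summed to 6460.5 to 13017 CPM in APP/Tau and 5193 to 8314 CPM in control HP. No marker of these lists was at 0. CPM are shares of a library, so a lower share of neuronal RNA raises the others, and the part of this in the Enpp6 result was not tested. Without the 2 control libraries rich in 18S ribosomal RNA, the log2 fold change of Enpp6 was 0.58 (adjusted p = 0.033).

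The APP/Tau mice differed widely among themselves. Gfap, the astrocyte filament gene that marks gliosis, had 4533, 664, 3728 and 1788 CPM in APP/Tau trained HP and 1584, 1297, 893, 982 and 4875 CPM in APP/Tau naive HP, against 313 to 495 CPM (median 394) in control HP. The 3 highest values, from trained replicates 1 and 3 and naive replicate 5, were separated from the other 6 by a gap of 36.9% of the log2 range. Among the 9 APP/Tau mice those 3 also held the 3 highest values of Enpp6, Bcas1, Myrf, Sox10, Olig1 and Olig2. For Olig1 and Olig2 the lowest of the 3 values (134 and 41.7 CPM) lay below control naive replicate 1 (140 and 43.0 CPM). The share of all genes with this pattern was not counted. For Pdgfra the 3 APP/Tau mice, in the order named above, had 52.6, 53.2 and 49.5 CPM, within the control range. Because Gfap fell into separate clusters no correlation over all 9 mice was computed, and among the 6 mice below the gap the relation to Gfap passed the test for none of the 9 genes. Enpp6 there had Pearson's r = 0.02 and Spearman's rho = -0.37 (n = 6, exact permutation p = 0.97 and 0.50, adjusted p over 9 genes 0.99 and 0.90; r = 0.43 without the 2 mice farthest from the median). The largest was Olig2 with r = 0.78 and rho = 0.83 (exact permutation p = 0.071 and 0.058, adjusted 0.64 and 0.52; r = 0.80 without those 2 mice). In the BLA, over 9 APP/Tau mice with Gfap from 50.0 to 1805 CPM, the smallest adjusted p of the 9 genes was 0.55 for r, and Pdgfra had r = -0.65 and rho = -0.55 (exact permutation p = 0.066 and 0.13; r = -0.61 without 2 mice).

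**Figure D5:**
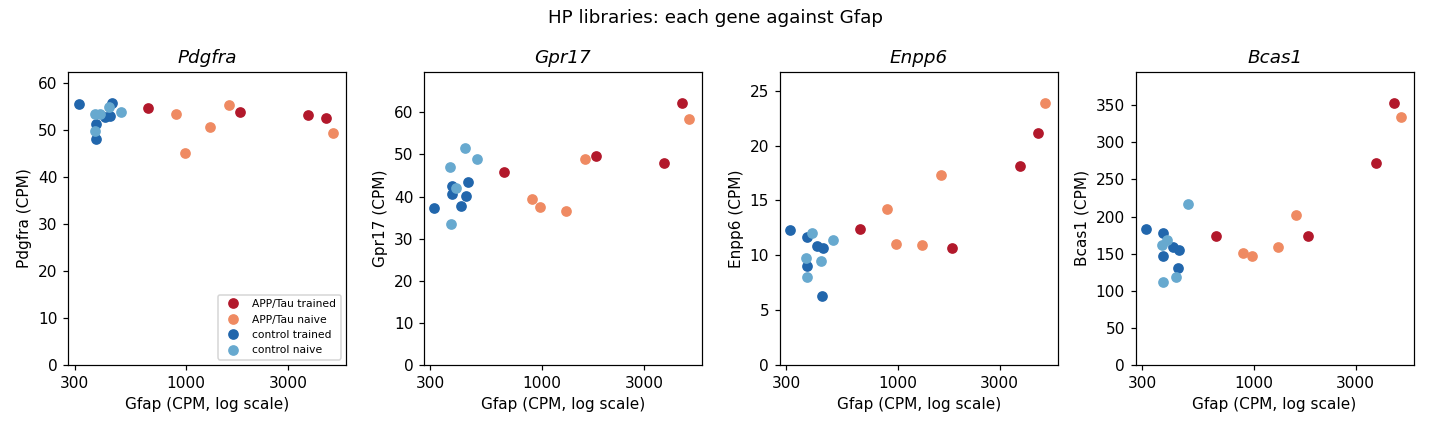
Level of Pdgfra, Gpr17, Enpp6 and Bcas1 in each of the 20 HP libraries (vertical axes, CPM) against Gfap in the same library (horizontal axis, CPM on a log scale), coloured by group. Enpp6 and Bcas1 are highest in the 3 APP/Tau libraries with Gfap at or above 3728 CPM, while Pdgfra stays between 45.1 and 55.8 CPM throughout.

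In the BLA none of the 9 genes passed the test of genotype, against a background of 1.18% of 23168 genes. None passed among naive mice, where 0.0388% of all genes did, or among trained mice, where 0.0432% did. On the log2 scale the estimates of Bcas1, Myrf, Enpp6 and Sox10 were 0.58, 0.48, 0.27 and 0.27 with those of Pdgfra, Cspg4 and Gpr17 near 0. Bcas1 had 139, 63.4, 89.6 and 162 CPM in APP/Tau trained BLA and 94.6, 161, 90.7, 65.8 and 104 CPM in APP/Tau naive BLA, against 74.5, 107, 64.8, 66.7 and 55.5 CPM in control trained BLA and 82.3, 59.7, 66.9, 77.4 and 73.8 CPM in control naive BLA. Of the 9 APP/Tau libraries 3 were above the control range, and the log2 fold change was 0.58 ± 0.17 (SE, adjusted p = 0.086). Myrf had 61.1, 35.0, 40.1 and 56.7 CPM in APP/Tau trained BLA and 50.8, 65.1, 45.6, 36.6 and 53.6 CPM in APP/Tau naive BLA, against 37.3, 57.5, 35.9, 34.6 and 28.6 CPM in control trained BLA and 28.7, 31.8, 34.6, 36.4 and 32.5 CPM in control naive BLA. The log2 fold change of Myrf was 0.48 ± 0.13 (adjusted p = 0.07). Among naive mice its groups were only just apart, with 36.6 CPM the lowest APP/Tau and 36.4 CPM the highest control value (edgeR adjusted p = 0.26). How many of all genes were separated in this way was not counted. Sox10 and Enpp6 had log2 fold changes of 0.27 ± 0.08 (adjusted p = 0.086) and 0.27 ± 0.15 (adjusted p = 0.32).

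Pdgfra in the BLA had 55.1 to 71.9 CPM (median 64.2) in APP/Tau and 54.5 to 77.0 CPM (median 66.4) in control mice, with a log2 fold change of -0.02 ± 0.07 and a 95% interval from -0.15 to 0.11. Cspg4 and Gpr17 had -0.05 ± 0.08 and 0.01 ± 0.08, and Olig1 and Olig2 had 0.20 ± 0.10 and 0.21 ± 0.09 (SE, adjusted p = 0.26 and 0.23). Of the further newly formed genes 2 of 24 rose, Kif19a, a kinesin (0.57 ± 0.12, adjusted p = 0.033), and Slc44a1 (0.40 ± 0.09, adjusted p = 0.033). Of the mature myelin genes 3 of 20 rose, Cnp (0.61 ± 0.14, adjusted p = 0.041), Opalin (0.81 ± 0.19, adjusted p = 0.044) and Ndrg1 (0.60 ± 0.14, adjusted p = 0.046), with all 20 estimates above 0 (median 0.58). Of the further precursor genes, the signals and the cell division genes none passed, with medians of -0.04, 0.07 and 0.06.

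The makeup of the punches also varied between libraries, and its part in the BLA estimates was not tested. The 9 striatal and central amygdala markers summed to 752 to 4099 CPM in APP/Tau and 395 to 3642 CPM in control BLA, with none at 0 and 9 of 9 estimates above 0 (median log2 fold change 0.66). The 3 highest Bcas1 values came from the 2 APP/Tau libraries with high Drd2 and from APP/Tau trained replicate 1. A further fit took the mean log2 CPM of the 9 striatal and central amygdala markers as a covariate. Its log2 fold changes were 0.27 for Bcas1 (adjusted p = 0.45), 0.25 for Myrf (0.21) and 0.10 for Enpp6 (0.83). Leaving out the 3 libraries with high Drd2 instead gave 0.45 for Bcas1 (adjusted p = 0.090), 0.47 for Myrf (0.041, past the threshold) and 0.29 for Enpp6 (0.23). Without APP/Tau trained 2, or without control trained 2, Bcas1 (adjusted p = 0.013 and 0.031), Myrf (0.014 and 0.016) and Sox10 (0.034 and 0.026) all passed, and without APP/Tau naive 4 Myrf (0.043) and Sox10 (0.037) did.

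Whether the effect of genotype differed between the tissues was tested directly. For none of the 9 genes did it pass, against a background of 0.0262% of 26725 genes. The largest difference was that of Enpp6, at -0.35 ± 0.22 (genotype effect in BLA minus that in HP, log2, SE, adjusted p = 0.71), with a 95% interval from -0.79 to 0.08. For Bcas1 it was 0.08 ± 0.25, for Myrf 0.04 ± 0.20 and for Pdgfra -0.01 ± 0.08.

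Training changed none of the 9 genes by the test. In fact no gene at all passed in either tissue (0% of 23168 in the BLA and 0% of 25791 in the HP with edgeR), in APP/Tau mice, in control mice or as an interaction with genotype. At an unadjusted p under 0.05 there were 1356 genes in APP/Tau mice and 484 in control mice in the BLA, 1184 and 624 in the HP, and 894 and 1005 for the interaction in BLA and HP. DESeq2 called 14 and 2 genes in APP/Tau and control BLA, 2 and 0 in APP/Tau and control HP, and 0 and 3 for the interaction in BLA and HP, none of them among the 9. Pdgfra in APP/Tau BLA had 59.6, 69.3, 60.7 and 64.2 CPM in trained and 71.6, 70.0, 71.9, 59.1 and 55.1 CPM in naive mice, a log2 fold change of -0.05 ± 0.09. In control BLA Pdgfra had 70.6, 64.6, 75.8, 64.0 and 77.0 CPM after training and 54.5, 55.3, 69.0, 68.2 and 61.2 CPM without it, a log2 fold change of 0.19 ± 0.09 (unadjusted p = 0.043). Gpr17 in APP/Tau BLA had 65.3, 62.7, 59.4 and 59.3 CPM in trained and 55.4, 47.2, 50.3, 47.01 and 60.1 CPM in naive mice (0.24 ± 0.11, unadjusted p = 0.043). Neither survived adjustment over all genes. In the HP the training estimates of the 9 genes ran from 0.01 to 0.29 in APP/Tau mice and from -0.16 to 0.03 in control mice.

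Within a condition, mice that were high in a gene of the differentiating cell tended to be high in the others. Over the 11 control HP libraries, after subtracting group means, all 36 pairs of the 9 genes had a Pearson's r above 0, and 12 passed a permutation test adjusted over the 36 pairs. Myrf and Sox10 had r = 0.98 (Spearman's rho = 0.98, adjusted p = 1.80e-04, with 1e-05 the smallest unadjusted p that 100000 permutations can give, r = 0.98 without the 2 libraries farthest from the median of Myrf), and Enpp6 and Myrf had r = 0.97 (rho = 0.95, adjusted p = 1.80e-04, r = 0.93 without 2 libraries). Pdgfra was related to none of the other 8, with r from 0.14 to 0.37 and adjusted p of at least 0.39. Cspg4 was related to Olig1 (r = 0.78, adjusted p = 0.016) and Olig2 (r = 0.80, adjusted p = 0.015), but not past the threshold to Enpp6 (r = 0.53, adjusted p = 0.19). Over 10 control BLA libraries 23 of 36 pairs had r above 0 and none passed. These libraries share depth and dissection, which a correlation between genes of 1 library also carries.

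Among 16643 genes with a mean of at least 1 CPM, the patterns most like those of the members over the 20 HP libraries (residuals from group means, Pearson's r, given as a description) were of 2 kinds. Bcas1, Enpp6, Myrf and Sox10 were most like genes such as Mbp (r = 0.98 with Bcas1), Enpp4 (0.97 with Enpp6), Gatm (0.98 with Myrf) and Cers2 (0.99 with Sox10). The closest to Pdgfra were Gm10608, Rarb and Ncapg, at r = 0.82, 0.78 and 0.74, and the closest to Gpr17 was Ikbkb at 0.94. In the BLA, Bcas1 was closest to Hmgn1 (r = 0.97 over 19 libraries) and Tspan2 (0.95), and Myrf to Erbb3 (0.97), a neuregulin receptor.

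Olig1 and Olig2 lie beside each other on chromosome 16, where a run of 8 neighbouring genes from N6amt1 to Grik1 was lower in APP/Tau mice in both tissues (averaged log2 fold changes from -1.57 to -0.69 in the HP and from -1.22 to -0.85 in the BLA). In the order of the RefSeq gene table, 13 genes with a mean of at least 1 CPM lay between Grik1 and Olig2, and of these 1 was lower in the HP (Tiam1, at -0.49 ± 0.10) and 0 in the BLA. Neither Olig gene was lower in APP/Tau mice, with the estimates given above. On the far side of Olig1, the receptor genes Ifnar2 and Il10rb rose in the HP by 0.35 ± 0.09 (adjusted p = 0.021) and 0.57 ± 0.14 (adjusted p = 0.015). The counts cannot tell apart reads of overlapping genes, since the strand setting is not given in the sources used here: Lims2 overlaps Gpr17, Gm31231 overlaps Enpp6, Bcas1os2 overlaps Bcas1 and Gm52261 overlaps Olig2, so the levels of these 4 genes may hold reads of both.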

How the data were processed

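The authors deposited whole-number counts per gene symbol and library, without normalization, in a table for each tissue. Per the submitters' processing notes, reads were trimmed with Trimmomatic 0.39 and build mm39 was used. Which aligner, counter and annotation were used, and whether counting used strand, is not given in the sources used here. Per the labels' protocols, poly(A) RNA was sequenced as 2 × 50 bp pairs, from 4 punches of 1 mm diameter per mouse for the BLA. Libraries were grouped as the labels give them, and each is taken as a separate mouse.

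Each tissue was fitted in R 4.3.3 with edgeR 4.0.16: filterByExpr (minimum count 10), TMM factors, a mean per group, and the 2-sided quasi-likelihood F test with Benjamini-Hochberg adjustment over all genes (23168 in the BLA, 25791 in the HP). "Passed" means an adjusted p under 0.05. A fit over both tissues (26725 genes) gave the region comparisons and treats all libraries as independent. The SE of a log2 fold change was its size divided by the root of its F statistic, and 95% intervals were taken from the normal distribution. Log2 CPM have a prior count of 2. Exon lengths come from GENCODE vM21, whose build (GRCm38) is not that of the counts. Correlations were tested by exact permutation up to 9 mice and with 100000 permutations above that, in Python 3 with SciPy. The scripts were tested on simulated data. The counts of no 2 libraries agreed within sampling noise. Depth limits the precision of genes with low counts.

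The 9 genes and the gene lists were chosen with earlier results of these data known. All 9 are named in each comparison. Of each list, up to 3 genes with the smallest p were named, of each gene the 3 closest in pattern, and Gfap, Prnp and the genes beside the Olig pair. Drd2, Tiam1 and the range of the chromosome 16 run were named after their values were seen. The alternatives were DESeq2 1.42.0, limma-voom 3.58.1, RLE factors, no filter, a mean of at least 1 CPM, a replicate block, a striatal marker covariate, only the 2 groups compared, and leaving out each library in turn. Fits without the 18S-rich or the high-Drd2 libraries were chosen after seeing the data.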

Additional observations from a re-analysis of the deposited data

Results flagged for a closer look

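Among 72 groups of 4 to 6 libraries (9 genes in 8 groups), 1 held a library far from the others for the spread of its group, and chance flags about 1 group in 20. Sox10 in control naive BLA was at 33.7 CPM in replicate 3, and the nearest of the other 4 libraries was at 29.1 CPM.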

How the results depend on the processing

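The averaged genotype comparison depended most on the processing. In the HP, 1 of the 9 genes passed, and the number was 2 with DESeq2, 3 with genes of at least 1 CPM, and from 0 to 4 when single libraries were left out. In the BLA, 0 passed, 3 with DESeq2, 1 without the 3 libraries with high Drd2, and from 0 to 3 when single libraries were left out. In APP/Tau mice 9 differed between regions, 8 with DESeq2, RLE factors or no filter, and from 7 to 9 when single libraries were left out. In trained HP mice 0 passed, 1 (Gpr17) in a fit of only the 2 groups compared, and from 0 to 1 when single libraries were left out. The cause of these moves was not tested. In no alternative did a gene that passed change direction. Counts over all genes moved too: 2854 in the averaged HP comparison was 4253 with DESeq2, 1803 without the 18S-rich libraries and 1171 to 4465 when single libraries were left out, and 273 in the BLA was 1191 with DESeq2, 64 with limma-voom, 23 with the striatal covariate and 45 to 2176 when single libraries were left out. In trained HP mice, 721 was 1584 with DESeq2, 35 with limma-voom and 227 without the 18S-rich libraries, and in naive HP mice 52 was 744, 24 and 21. In BLA mice, 9 (naive) and 10 (trained) were 110 and 204 with DESeq2. When single libraries were left out these counts ran from 62 to 2234 in trained and 18 to 260 in naive HP mice, from 8 to 677 in trained and 8 to 16 in naive BLA mice, and from 2 to 25 for the genotype difference between regions (7).

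With the replicate number of the labels as a block, 3 of the 9 genes passed in the averaged HP comparison (Bcas1, Enpp6 and Myrf) and 1 in trained HP mice (Myrf, adjusted p = 0.048), while counts over all genes were 44 in the BLA and 4145 and 1456 in the averaged and trained HP comparisons. Within the BLA, deviations of same-numbered libraries of other groups had a mean r of -0.04, and 5 of 27 pairs were over 0.1. For different numbers there the mean r was 0.01, and 33 of 108 pairs were over 0.1. In the HP the mean r was 0.06 for the same number (11 of 27 over 0.1) and -0.01 for different numbers (23 of 122). The labels do not say what the number stands for. Between tissues, same-numbered libraries of a condition had a mean r of 0.27 (0.04 to 0.54 over 19 pairs), against -0.06 over 77 pairs with different numbers. The labels do not say that same-numbered libraries come from 1 mouse. The genotype difference between regions called 7 genes, and 30 with the number as a block across tissues.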
